A study of Homo sapiens with 16 samples.

Results

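PCDH7, SPOCK1, GJB2, GLI3 and RFTN1 are 5 of the 18227 genes measured in H2023 and A549, established lines grown from non-small cell lung cancer of human origin. The 5 were selected on the size of their change between knockout and wild-type cells in H2023, so their H2023 knockout changes are given as a description without a test. Each encodes a protein of a different kind. PCDH7 is a non-clustered protocadherin, a cell-surface adhesion molecule of the cadherin superfamily. SPOCK1 (testican-1) is a secreted proteoglycan of the extracellular matrix, related to SPARC. GJB2 is connexin 26, a subunit of gap junction channels, through which neighbouring cells exchange small molecules. GLI3 is a zinc-finger transcription factor at the end of the Hedgehog pathway, where it acts mainly as a repressor when no ligand is present. RFTN1 (raftlin) is a protein of cholesterol-rich membrane rafts, first known from B cells and also from the uptake of Toll-like receptor ligands.

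RNA sequencing covered 16 libraries in 8 groups of 2. Each line was used as wild type and with a ZC3H12A knockout, either in normal culture (3 days) or as oncospheres, the stem-cell-enriched culture (7 days). Regnase-1, the product of ZC3H12A, is an RNase that cleaves selected mRNAs at stem-loops in their 3′ untranslated regions and thereby limits inflammatory transcripts. Per the titles, the knockout is represented by 1 clone in each line, so the knockout and whatever else sets that clone apart cannot be told apart. Culture type and days in culture change together. The labels do not say that replicates came from separate cultures, so p-values measure the spread between these libraries only. Levels are in TPM, a transcript abundance scaled by transcript length and within each library, and the sequencing depth of a single library is unknown.

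The targeted gene was examined first. ZC3H12A stood at 30.72 and 34.88 TPM in A549 wild type and 16.90 and 19.93 in the libraries labelled knockout in normal culture. In A549 oncospheres the values were 48.48 and 49.17 against 60.17 and 55.60. In H2023 they were 26.78 and 29.85 against 41.48 and 41.54 in normal culture, and 32.54 and 26.41 against 94.61 and 69.18 in oncospheres. The mRNA was thus lower in the libraries labelled knockout in A549 normal culture and higher in the other 3 comparisons, so its level does not check the labels, and every direction given here is that of the libraries labelled knockout.

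Across the series, 13824 to 14508 genes reached 1 TPM in a library, and the r between replicates over all genes was 0.983 to 0.992. The mitochondrial share of TPM was 10.3% to 18.7% under normal conditions and 19.5% to 25.6% in oncospheres. The epithelial keratins KRT7 (630.21 to 2862.69 TPM), KRT8 (765.43 to 5982.21) and KRT18 (665.75 to 4515.49) were high in every library, while KRT19 ran from 0.29 to 797.79 TPM. KRT19 was lowest in the A549 libraries labelled knockout in normal culture, at 0.67 and 0.29 TPM against 6.11 and 8.33 in wild type. The summed level of the 6 epithelial markers was 2570.99 to 13032.08 TPM. EPCAM, also an epithelial marker, ran down to 0.37 TPM. Of the markers of other cell types, 3 of 6 fibroblast genes summed to 1.34 to 10.13 TPM and PECAM1, the 1 measured of 5 endothelial genes, reached at most 2.76 TPM. CD68, the 1 measured of 5 leukocyte genes, stood at 28.7 to 178.89 TPM.

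The promoter windows of 3 of the 5 genes were matched in RefSeq (GRCh38.p14). They are shown because these genes moved in H2023 in opposite directions, PCDH7 down and GJB2 and RFTN1 up. Each window runs 5′ to 3′ on the gene's own strand, from 250 bases before the RefSeq start of the gene to 50 after it. The windows lie at chr4:30720119-30720418 (+) for PCDH7, chr13:20192889-20193188 (-) for GJB2 and chr3:16513650-16513949 (-) for RFTN1. These starts are not the ends of the GENCODE spans given below. The RFTN1 window lies wholly inside its span, 16313574 to 16514026. Capitals mark every match to the motifs searched: the GC box GGGCGG, the CAGGTG E-box, the AP-1 site TGANTCA and the GLI site TGGGTGGTC on both strands, and the TATAAA and TTAAAA boxes as written. The motifs do not overlap in these windows.

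PCDH7: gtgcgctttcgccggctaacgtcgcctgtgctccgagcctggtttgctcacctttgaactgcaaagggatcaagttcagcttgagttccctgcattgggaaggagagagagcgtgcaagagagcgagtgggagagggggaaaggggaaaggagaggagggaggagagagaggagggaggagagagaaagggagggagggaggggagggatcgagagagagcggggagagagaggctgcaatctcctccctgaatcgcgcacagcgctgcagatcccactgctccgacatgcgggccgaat
GJB2: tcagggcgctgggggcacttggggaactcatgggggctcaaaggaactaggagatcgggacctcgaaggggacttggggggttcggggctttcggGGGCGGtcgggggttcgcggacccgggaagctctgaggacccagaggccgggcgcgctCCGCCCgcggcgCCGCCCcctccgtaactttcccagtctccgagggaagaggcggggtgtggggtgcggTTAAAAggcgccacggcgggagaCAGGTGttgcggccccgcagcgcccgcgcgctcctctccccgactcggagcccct
RFTN1: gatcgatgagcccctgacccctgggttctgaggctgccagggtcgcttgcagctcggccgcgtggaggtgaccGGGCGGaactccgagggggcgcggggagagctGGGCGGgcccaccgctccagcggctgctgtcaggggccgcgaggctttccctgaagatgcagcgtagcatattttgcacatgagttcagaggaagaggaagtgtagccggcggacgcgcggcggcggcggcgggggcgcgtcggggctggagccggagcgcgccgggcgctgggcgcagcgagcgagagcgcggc

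The PCDH7 window held 16 CpG dinucleotides and 60.3% G or C, near the medians of 14 and 58.7% over 35116 promoter windows of the same length. The GJB2 window held 33 CpG and the RFTN1 window 38, with 71.7% and 72.7% G or C. Both were therefore richer in CpG than most promoters, with 84.4% and 91.3% of windows holding as few or fewer. The GJB2 window had 3 GC boxes and RFTN1 had 2, a motif present in 45.0% of all windows, and PCDH7 had none of the motifs searched. GJB2 also had 1 CAGGTG match and 1 TTAAAA match, found in 20.6% and 11.0% of windows. The AP-1, GLI and TATAAA letters, present in 7.7%, 0.2% and 7.3% of windows, were not in any of the 3.

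Regnase-1 is known to cut in a UAU loop, so the 3′ untranslated regions were searched for TAT closed by a stem of at least 5 pairs, G-U pairs included. For each gene 1 transcript was searched, that with the longest coding sequence, and other 3′ ends were not. SPOCK1 and GLI3 each held 1 such stem-loop there, and PCDH7, GJB2 and RFTN1 held 0. The sites are shown beside those of NFKBIZ, a known target of the enzyme, with the loop in capitals.

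SPOCK1: tttgggTATcttaaa
GLI3: tttttagTATttgagag
NFKBIZ: ttgtttcTATgaaacaa
NFKBIZ: gttcactatTATatagtgggt

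The SPOCK1 loop starts at base 724 of a region of 3356 bases, with 6 pairs, and the GLI3 loop at base 1179 of 3380, with 7 pairs. Of regions of 80% to 125% of their lengths, 50.9% and 51.5% also held at least 1 such stem-loop. The search found 2 in NFKBIZ and 0 in IL6, another known target of the enzyme, so it does not find every target. The regions searched without a match were 668 bases long in PCDH7, 1431 in GJB2 and 972 in RFTN1, lengths at which 12.5%, 26.6% and 19.9% of regions held one. A match is a description of the letters, and whether the enzyme acts on these mRNAs was not measured.

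**Figure D1:**
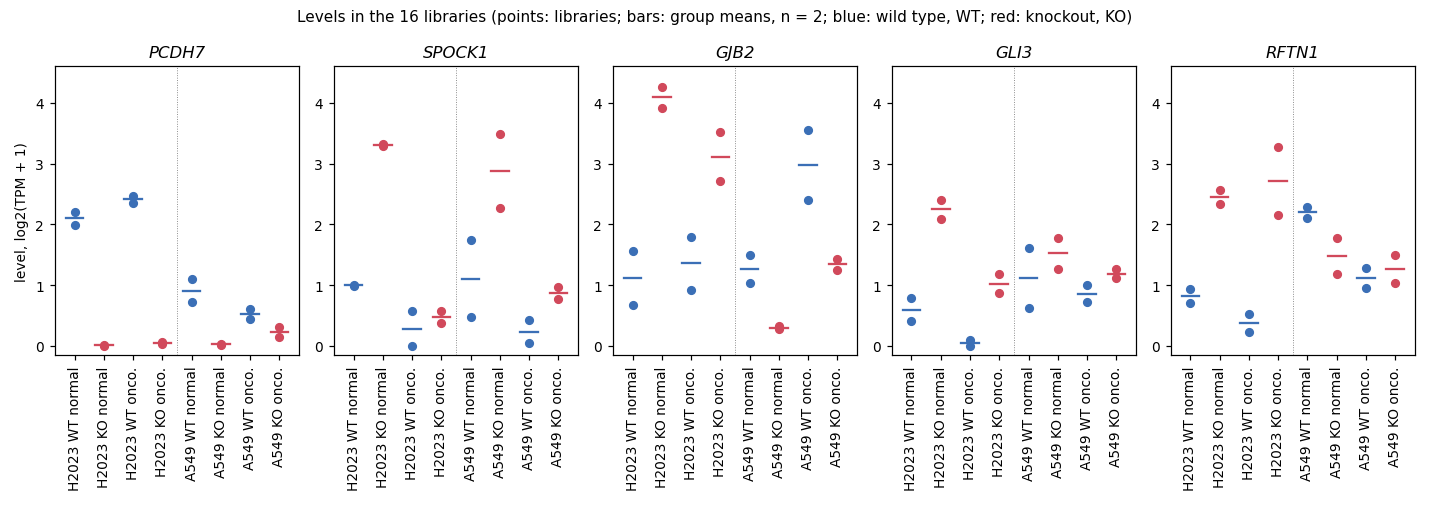
Level of each gene in the 16 libraries, as log2(TPM + 1), with points for libraries and bars for group means (n = 2). In H2023, PCDH7 lies near 0 in all 4 libraries labelled knockout, while GJB2, GLI3 and RFTN1 lie higher there than in wild type in both cultures.

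In H2023, PCDH7 was all but lost in the libraries labelled knockout. In normal culture it stood at 2.99 and 3.63 TPM in wild type and at 0.01 and 0.00 in the libraries labelled knockout, the latter meaning listed at 0. In oncospheres it stood at 4.12 and 4.51 TPM against 0.04 and 0.02. The groups lie far apart in both cultures, and wild-type H2023 oncospheres held the highest PCDH7 level of the series. The authors' deposited table gave a log2 fold change of -7.52 (standard error 0.89) in normal culture, where PCDH7 was first among the 1074 genes called lower, and -7.24 (0.65) in oncospheres, where it was at place 2 of 459. PCDH7 (ENSG00000169851) spans 426.4 kb on the + strand of chromosome 4, from 30720415 to 31146805 in GRCh38.

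SPOCK1 was higher in the H2023 libraries labelled knockout in normal culture but not in oncospheres. Its levels in normal culture were 0.97 and 1.01 TPM in wild type against 8.82 and 9.05. In oncospheres they were 0.48 and 0.00 TPM against 0.29 and 0.49. The groups were far apart in the first case and overlapped in the second, where every library was below 0.5 TPM. The authors' deposited table gave log2 fold changes of 3.42 (standard error 0.29), place 4 of 591 genes called higher, and 1.53 (1.35), with no adjusted p-value in oncospheres. The mean normalized count of SPOCK1 in the authors' deposited table was 215.2 in normal culture and 7.3 in oncospheres. SPOCK1 (ENSG00000152377) lies on the - strand of chromosome 5, from 136975298 to 137598379 in GRCh38, a span of 623.1 kb.

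GJB2 reached the highest level of the 5 genes. It stood at 1.95 and 0.60 TPM in H2023 wild type in normal culture and at 14.09 and 18.19 in the libraries labelled knockout. In oncospheres the values were 2.45 and 0.90 TPM against 5.54 and 10.47. The groups did not overlap in either culture, and the wild-type replicates differed from each other by more than those labelled knockout in normal culture, in relative terms. Log2 fold changes in the authors' deposited table were 3.63 (standard error 0.76) in normal culture, place 3 of 591, and 2.17 (0.52) in oncospheres, place 54 of 357. GJB2 (ENSG00000165474) is a short gene of 5.5 kb on the - strand of chromosome 13, from 20187463 to 20193010 in GRCh38.

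GLI3 was low in H2023 wild type and higher in the libraries labelled knockout in both cultures. Normal culture gave 0.73 and 0.32 TPM in wild type against 4.27 and 3.27. Oncospheres gave 0.07 and 0.00 TPM against 0.83 and 1.26. The groups did not overlap, and the difference sits at a lower level in oncospheres, where wild type was at or near 0. The authors' deposited table listed log2 fold changes of 3.40 (standard error 0.30), place 5 of 591, and 4.27 (0.74), place 7 of 357. GLI3 (ENSG00000106571) spans 276.9 kb on the - strand of chromosome 7, from 41960950 to 42237870 in GRCh38.

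RFTN1 was also higher in the H2023 libraries labelled knockout in both cultures. It stood at 0.91 and 0.63 TPM in wild type against 4.91 and 4.06 in normal culture. In oncospheres it stood at 0.17 and 0.44 TPM against 3.46 and 8.70. No wild-type library reached the lowest library labelled knockout, and the oncosphere libraries labelled knockout were more than 5 TPM apart from each other. Log2 fold changes in the authors' deposited table were 2.91 (standard error 0.38), place 13 of 591, and 4.38 (1.29), place 5 of 357. RFTN1 (ENSG00000131378) spans 200.5 kb on the - strand of chromosome 3, from 16313574 to 16514026 in GRCh38.

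By the places above the 5 are not the complete top of either list, and the selection itself favours high places. In oncospheres GJB2 was at place 54 of 357 and SPOCK1 was not called. A share of all genes in the authors' deposited tables, here and below, is over the genes with an adjusted p-value there. In the H2023 comparison the share called was 10.8% of 15400 such genes in normal culture and 5.07% of 16106 in oncospheres. Nothing is read from these shares for the 5 genes, since this comparison selected them. The limma test on log2(TPM + 1) called 0 genes (0%) in either H2023 comparison after adjustment, with 3314 and 2828 genes at an unadjusted p under 0.05, where the authors' deposited tables called 1665 and 816.

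**Figure D2:**
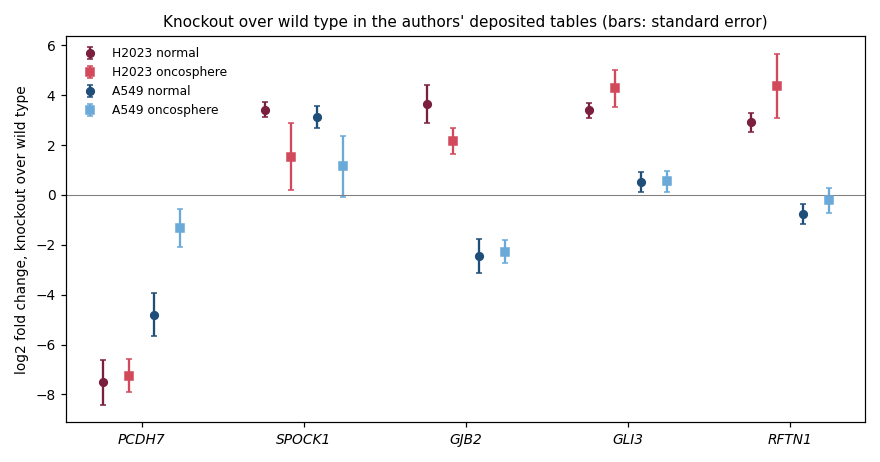
Knockout over wild type as log2 fold change for each gene in the authors' deposited tables, in both lines and cultures, with bars for the standard error. GJB2 lies at 3.63 and 2.17 in H2023 and at -2.44 and -2.28 in A549, while PCDH7 is below 0 in all 4 comparisons.

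The selection rule used the H2023 changes, and the same genes were tested in A549. The genes were chosen with earlier results of these data known, so A549 may not be an independent test. PCDH7 was lower in the A549 libraries labelled knockout in normal culture, at 1.15 and 0.64 TPM in wild type against 0.02 and 0.01. The groups did not overlap, and PCDH7 fell by 0.89 on the log2(TPM + 1) scale (standard error 0.16, limma adjusted p = 0.0331). In A549 oncospheres it stood at 0.52 and 0.36 TPM against 0.24 and 0.10, apart but close, and the difference did not pass (-0.30, standard error 0.13, limma adjusted p = 0.207). The authors' deposited table called the normal-culture fall (-4.80, adjusted p = 7.41e-07) and not the oncosphere difference (-1.32, adjusted p = 0.244). The limma call was lost when any 1 of the 4 libraries was left out (-1.08 to -0.69, adjusted p 0.132 to 0.205), a setting in which limma called 0 of all genes.

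GJB2 went down in A549, opposite to its direction in H2023. It stood at 1.83 and 1.04 TPM in A549 wild type and 0.21 and 0.25 in the libraries labelled knockout in normal culture, and it fell by 0.97 (standard error 0.19, limma adjusted p = 0.0407). In oncospheres it stood at 10.68 and 4.30 TPM against 1.70 and 1.37, a difference of -1.64 (0.40) that missed the threshold (limma adjusted p = 0.056). The groups did not overlap in either culture. The authors' deposited table called both, at -2.44 (adjusted p = 0.00336) and -2.28 (adjusted p = 9.62e-06). The normal-culture call was lost without any 1 of the 4 libraries (-1.20 to -0.73, limma adjusted p 0.132 to 0.215) and in a fit over all 16 libraries (adjusted p = 0.138), while the oncosphere difference passed in that fit (0.0164).

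SPOCK1 had higher levels in the A549 libraries labelled knockout, with wide spread. In normal culture it stood at 0.39 and 2.33 TPM in wild type against 10.25 and 3.80, and in oncospheres at 0.34 and 0.03 against 0.96 and 0.71. The groups did not overlap, but the replicates of normal culture and the wild-type replicates of oncospheres differed several-fold from each other. The mean normalized count of SPOCK1 in the authors' deposited A549 tables was 164.2 in normal culture and only 6.9 in oncospheres. The differences of 1.77 (standard error 0.57, limma adjusted p = 0.107) and 0.64 (0.18, adjusted p = 0.0785) did not pass, although the first passed in a fit over all 16 libraries (adjusted p = 0.0114) and with a filter at a mean of 1 TPM (0.0487). The authors' deposited table called SPOCK1 in normal culture (3.12, adjusted p = 3.77e-11) and not in oncospheres (1.14, adjusted p = 0.624).

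GLI3 and RFTN1, both higher in the H2023 libraries labelled knockout, did not pass in A549. GLI3 stood at 2.05 and 0.54 TPM in A549 wild type against 1.40 and 2.43 in normal culture, which overlap, and at 0.64 and 1.00 against 1.41 and 1.16 in oncospheres, which do not. Its differences were 0.40 (95% interval -0.55 to 1.36, limma adjusted p = 0.507) and 0.33 (-0.12 to 0.78, adjusted p = 0.277). RFTN1 stood at 3.32 and 3.90 TPM against 2.43 and 1.26 in normal culture, lower without overlap, and at 0.94 and 1.42 against 1.81 and 1.04 in oncospheres, which overlap. The RFTN1 differences were -0.72 (95% interval -1.39 to -0.06, limma adjusted p = 0.136) and 0.14 (-0.44 to 0.73, adjusted p = 0.723). Neither gene was called in A549 by the authors' deposited tables, with adjusted p from 0.18 to 0.864. Without the second wild-type library of normal culture the GLI3 difference turned to -0.088, and without the first wild-type or the first knockout library of oncospheres that of RFTN1 turned to -0.015 and -0.087.

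In all, limma called 2 of the 5 genes in A549 normal culture, where it called 10.8% of all genes, and 0 of 5 in A549 oncospheres, where it called 13.2%. The authors' deposited tables called 3 of 5 in A549 normal culture and 1 of 5 in oncospheres. They called 22.1% and 20.7% of the 16460 and 17520 genes with an adjusted p-value, while the limma shares are over all 18227 genes. None of the 5 differed between cultures in its A549 knockout effect by limma's interaction term, which called 6.65% of all genes. Its largest estimate was that of SPOCK1 (-1.13, 95% interval -2.69 to 0.42, adjusted p = 0.336), and its lowest adjusted p that of PCDH7 (0.59, 0.07 to 1.10, adjusted p = 0.148). Set side by side, the knockout differences of PCDH7, SPOCK1 and GLI3 had the same sign in both lines in normal culture, and those of GJB2 and RFTN1 had opposite signs. The difference between lines was not tested for these genes, because the H2023 comparison selected them.

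**Figure D3:**
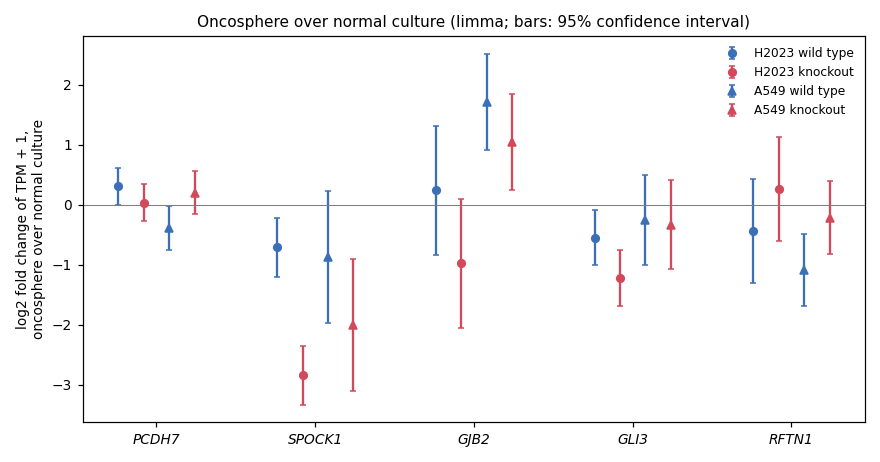
Log2 fold change of oncosphere over normal culture for each gene by line and genotype, on the log2(TPM + 1) scale, with bars for the 95% confidence interval. SPOCK1 lies below 0 in all 4 comparisons, from -2.84 in H2023 knockout to -0.71 in H2023 wild type, and GJB2 lies highest in A549 wild type at 1.71.

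Oncosphere and normal culture were compared within each line and genotype. In H2023 the values compared are those on which the genes were selected, so the H2023 differences are given without a test. SPOCK1 was lower in oncospheres in all 4 comparisons without overlap of the groups, and it fell in the libraries labelled knockout of A549 (-2.01, standard error 0.48, limma adjusted p = 0.0209). In A549 wild type the difference was -0.87 (0.48, adjusted p = 0.18). The H2023 differences were -2.84 (0.20) in the libraries labelled knockout and -0.71 (0.20) in wild type. The A549 call was lost without the first normal-culture library labelled knockout (-1.39, adjusted p = 0.116), without either oncosphere library labelled knockout (-2.10 and -1.91, adjusted p 0.0796 and 0.0941) and at a pseudocount of 0.1 (-2.78, adjusted p = 0.054).

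GLI3 was lower in the oncospheres of H2023 without overlap, by -1.22 (standard error 0.19) in the libraries labelled knockout and by -0.55 (0.19) in wild type, which was -2.18 at a pseudocount of 0.1. In A549 the GLI3 differences were -0.26 in wild type and -0.33 in the libraries labelled knockout, with overlapping groups (limma adjusted p 0.561 and 0.529), and the first turned to 0.23 without the first wild-type library of normal culture. GLI2, the related activator, was also lower in H2023 oncospheres, at 0.89 and 0.67 TPM in wild type against 14.85 and 12.50 in normal culture. It was lower in A549 oncospheres too, at 2.63 and 2.17 TPM in wild type against 11.36 and 6.12. In the A549 libraries labelled knockout GLI2 stood at 2.81 and 1.69 TPM against 8.27 and 7.44.

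GJB2 rose in oncospheres of A549 wild type (1.71, standard error 0.35, limma adjusted p = 0.0057), from 1.83 and 1.04 TPM to 10.68 and 4.30. In the A549 libraries labelled knockout it went from 0.21 and 0.25 TPM to 1.70 and 1.37, a difference of 1.04 that did not pass (0.35, adjusted p = 0.0711). In H2023 the GJB2 differences were 0.24 in wild type, with overlapping groups, and -0.97 in the libraries labelled knockout, and the first turned to -0.20 without the second wild-type library of normal culture and to -0.19 without the first of oncospheres.

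RFTN1 fell in oncospheres of A549 wild type (-1.09, standard error 0.26, limma adjusted p = 0.0121), a call lost without the second normal-culture library (-0.995, adjusted p = 0.0603) or the first oncosphere library (-0.93, adjusted p = 0.0744). Its difference in A549 knockout was -0.22 (adjusted p = 0.617). In H2023 it was -0.44 in wild type and 0.27 in knockout. Without the second oncosphere library labelled knockout the last turned to -0.29. PCDH7 differed by -0.39 in A549 wild type and did not pass (adjusted p = 0.0861), except without the second normal-culture library (-0.58, adjusted p = 0.0299). In H2023 wild type PCDH7 differed by 0.31 and in A549 knockout by 0.20 (limma adjusted p = 0.418), both opposite in direction to A549 wild type. In H2023 knockout it differed by 0.04.

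The culture tests called 2 of the 5 genes in A549 wild type and 1 in A549 knockout, against 40.6% and 20.8% of all genes. In H2023 limma called 21.4% of all genes in wild type and 26.9% in knockout, and no count of the 5 is read against these shares. The median difference in these H2023 comparisons was -0.24 and -0.17 among genes with a mean of at least 1 TPM. Over all genes it was -0.18 and -0.12. The share of mitochondrial TPM, given above, moves with culture, and its part in these differences was not tested.

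The wild types of the lines were set side by side without a test, because the H2023 wild-type level entered the selection. PCDH7 was higher in H2023 than in A549 by 1.19 in normal culture (standard error 0.15) and by 1.89 in oncospheres (0.15). RFTN1 was lower in H2023 without overlap in both cultures, by -1.38 (0.33) and -0.74 (0.33). In oncospheres GJB2 was lower in H2023 (-1.62, 0.42), as was GLI3 (-0.81, 0.29), while in normal culture both overlapped between the lines. SPOCK1 overlapped between the lines in both cultures. Limma called 41.5% of all genes between the wild types in normal culture and 47.8% in oncospheres, and nothing is read from these shares for the 5 genes.

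Over the 8 groups, PCDH7 ran from 4.32 TPM on average in H2023 wild-type oncospheres to 0.005 in H2023 knockout normal culture, and the ranges of neighbours in this order overlapped only among the lowest 3 groups. SPOCK1 ran from 8.94 TPM in H2023 knockout normal culture to 0.19 in A549 wild-type oncospheres. Its top place overlapped with A549 knockout normal culture, the wild types of both lines overlapped in normal culture, and its lowest 3 groups overlapped with their neighbours. GJB2 ran from 16.1 TPM in H2023 knockout normal culture to 0.23 in A549 knockout normal culture, with overlaps between places 2 and 3 and among places 4 to 7. GLI3 ran from 3.77 TPM in H2023 knockout normal culture to 0.04 in H2023 wild-type oncospheres, and the 6 groups between them overlapped with their neighbours in turn. RFTN1 ran from 6.08 TPM in H2023 knockout oncospheres to 0.31 in H2023 wild-type oncospheres, with places 1 and 2 and places 4 to 6 overlapping. H2023 thus held both the highest and the lowest group of PCDH7, GLI3 and RFTN1.

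The relatives and pathway partners of each gene were described through 6 lists, with the selected gene left out of its list in H2023. Limma called 0 genes of any list in H2023, so calls there are those of the authors' deposited tables. The counts of each list stand beside 10.8% and 5.07% of all genes called in H2023 normal culture and oncospheres in those tables, and 22.1% and 20.7% in A549. Genes of a list without an adjusted p-value are counted though they could not be called. One was given in H2023 normal culture for 3 of 4 protocadherins, 4 of 5 SPARC relatives and 7 of 8 connexins and pannexins. It was also given for 24 of 25 Hedgehog and 14 of 15 raft genes, and in oncospheres for 4 of 5 SPARC relatives. In A549 normal culture it was given for 5 of 6 SPARC relatives and 8 of 9 connexins and pannexins. Genes outside the naming rule are named below where a count is small, after their values were seen. Among the other non-clustered protocadherins, PCDH9 was called lower in both H2023 cultures (-2.95 and -3.33 in the authors' deposited tables) and PCDH10 in oncospheres (-4.43), of 4 counted, and none was called higher. PCDH9 stood at 1.83 and 6.59 TPM in H2023 wild type and 0.82 and 0.28 in the libraries labelled knockout in normal culture, and at 1.95 and 1.81 against 0.25 and 0.16 in oncospheres. In A549 normal culture PCDH7, PCDH9 and PCDH10 were called lower in the authors' deposited table, 3 of 5 beside 22.1% of all genes, and in A549 oncospheres 0 of 5 were, beside 20.7%. The median of the 4 in H2023 was -1.61 and -1.67, against 0.00 and 0.01 over all genes in the authors' deposited tables. PCDH8 and PCDH17 were not analysed here.

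**Figure D4:**
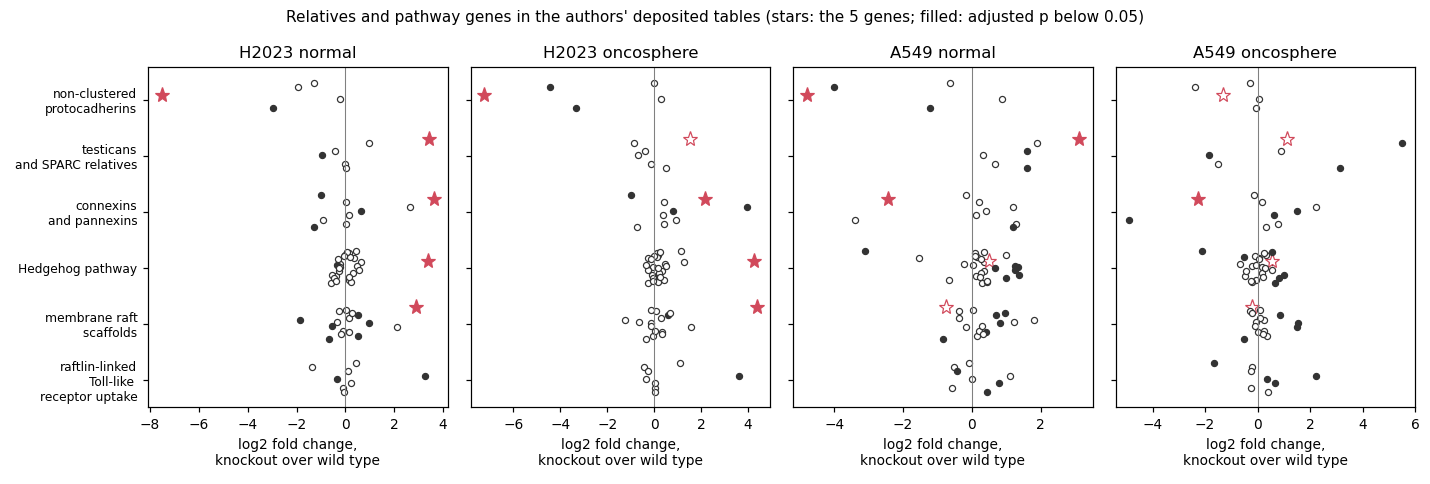
Knockout over wild type as log2 fold change in the authors' deposited tables for the genes of the 6 lists, with stars for the 5 selected genes and filled points for an adjusted p below 0.05. In H2023 most relatives lie nearer 0 than the stars, which the selection itself favours. Apart from the stars, PCDH9 (-2.95 and -3.33) and TLR4 (3.24 and 3.61) are the farthest from 0 of those called in both H2023 cultures.

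No other testican or SPARC relative was called higher in H2023. SMOC1 was called lower in normal culture (-0.98 in the authors' deposited table), and none of 5 was called in oncospheres. In A549 the authors' deposited tables called SPOCK1 with SPOCK2 (1.60) and FSTL1 (1.60) higher in normal culture, 3 of 6 beside 22.1% of all genes. In A549 oncospheres SPARC (5.49) and FSTL1 (3.15) were called higher and SMOC1 (-1.87) lower, of 6, in the authors' deposited table. SPOCK2 was at or below 1.13 TPM in all 16 libraries.

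Among 8 other connexins and pannexins, GJA1 (connexin 43) was called lower in both H2023 cultures, at -1.0 in both of the authors' deposited tables, while GJC1 (connexin 45) was called higher, at 0.63 and 0.82. GJA1 stood at 20.75 and 22.79 TPM against 10.38 and 11.26 in normal culture and at 35.70 and 39.82 against 18.40 and 21.89 in oncospheres. GJA1 thus went the opposite way to GJB2 in H2023 and was more abundant than GJB2 in wild type. PANX2 was called lower in normal culture (-1.27) and GJA3 higher in oncospheres (3.96) in the authors' deposited tables. In A549 the authors' deposited tables called PANX2 higher (1.21) beside GJB2 lower in normal culture, and in oncospheres GJC1 (1.51) and PANX1 (0.62) higher and GJB1 (-4.89) lower beside GJB2. GJB6, the neighbour of GJB2 and its partner in hereditary deafness, was not analysed here.

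Of 25 other Hedgehog pathway genes, CSNK1A1, a kinase that phosphorylates GLI proteins, was the 1 called in H2023 normal culture (-0.36, lower, in the authors' deposited table) and 0 were called in oncospheres, beside 10.8% and 5.07% of all genes. GLI1 and PTCH1, the usual targets of the pathway, were not called there: GLI1 stood at 7.34 and 6.42 TPM against 7.95 and 7.09 in H2023 normal culture, and PTCH1 at 4.98 and 5.56 against 4.31 and 3.58. The medians of the list were -0.01 and 0.15, against 0.00 and 0.01 over all genes in the authors' deposited tables. In A549, where GLI3 itself was not called, the authors' deposited table called PTCH1 (1.35), GLI1 (1.24), GPR161 (1.36), KIF7 (1.25), STK36 (1.00) and EVC (0.67) higher and the ligand SHH lower (-3.12) in normal culture, 7 of 26 beside 22.1% of all genes. In A549 oncospheres 4 of 26 were called higher and 2 lower beside 20.7% of all genes, SHH again among the latter (-2.13 in the authors' deposited table).

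Among 15 other membrane raft proteins, 3 were called higher and 3 lower in H2023 normal culture in the authors' deposited table, which called 10.8% of all genes. The caveolar genes CAV1 (0.95), CAV2 (0.53) and CAVIN1 (0.51) were the higher ones, and RFTN2 (-1.86), the paralogue of RFTN1, STOM (-0.66) and PACSIN2 (-0.56) the lower ones. In H2023 oncospheres CAVIN1 alone was called (0.62 in the authors' deposited table). CAV1 and CAVIN1 were also called higher in both A549 cultures, at 0.82 and 1.53 for CAV1 and 0.70 and 0.85 for CAVIN1 in the authors' deposited tables, where RFTN1 was not. In A549 as a whole the list had 4 called higher and 1 lower of 16 in normal culture and 3 and 1 in oncospheres in the authors' deposited tables, which called 22.1% and 20.7% of all genes. Of the 8 genes of Toll-like receptor uptake, TLR4, the receptor of lipopolysaccharide, was called higher in both H2023 cultures (3.24 and 3.61 in the authors' deposited tables), and CLTC, the clathrin heavy chain, lower in normal culture (-0.33). TLR4 stood at 0.14 and 0.10 TPM against 0.96 and 1.34 in normal culture and 0.42 and 0.10 against 2.27 and 3.73 in oncospheres, low levels in which the groups did not overlap. It was called higher in A549 oncospheres as well (2.21 in the authors' deposited table), where TLR3, the receptor of double-stranded RNA, was called lower (-1.64). CLTC, lower in H2023, was called higher in A549 oncospheres (0.37). In A549 as a whole this list had 2 called higher and 1 lower of 8 in normal culture and 3 and 1 in oncospheres. These counts stand beside 22.1% and 20.7% of all genes in the authors' deposited tables.

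**Figure D5:**
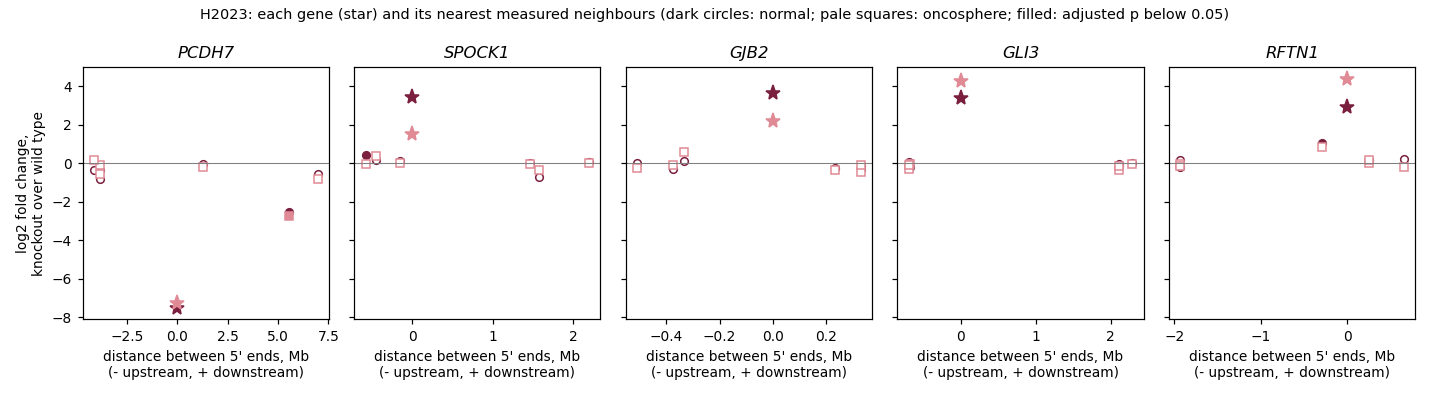
Knockout over wild type as log2 fold change in H2023, from the authors' deposited tables, for each gene (star) and 6 neighbours, against the distance between 5′ ends in megabases. The neighbours are the nearest genes with a mean of at least 1 TPM. Most neighbours lie near 0, and ARAP2 in the PCDH7 panel lies at -2.55 and -2.73.

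Position was not used in the selection, so the 3 nearest genes on each side of each gene were examined, 30 in all. Only genes with a mean of at least 1 TPM over the 16 libraries were taken, so measured genes below that level are not covered. Of the 30, 2 were called higher and 1 lower by the authors' deposited table in H2023 normal culture, and 1 was called lower in oncospheres, where 10.8% and 5.07% of all genes were called. Among the 30, STIM2-AS1 had no adjusted p-value in H2023 and could not be called there. ARAP2, 5524 kb downstream of PCDH7, was the gene lower in both (-2.55 and -2.73 in the authors' deposited tables), and it was lower in A549 too (-1.95 and -1.72). PLCL2, 289 kb upstream of RFTN1, was higher in H2023 normal culture (1.03, adjusted p = 0.0107 in the authors' deposited table) and not called in oncospheres (0.85, adjusted p = 0.368). KIF20A, 580 kb upstream of SPOCK1, was the other (0.43). None of the 6 neighbours examined for GJB2 or of the 6 for GLI3 was called in either line. TGFBI, 1569 kb downstream of SPOCK1, was called higher in A549 (1.96 and 1.36 in the authors' deposited tables) and not in H2023, where it stood at -0.73 and -0.38.

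Likeness of pattern was measured by Pearson's r over log2(TPM + 1) of the 16 libraries, among genes with a mean of at least 1 TPM. These libraries share line, culture and genotype, so r describes the pattern and carries no test. PLTP (r = 0.918), C1orf43 (0.914) and NLRP1 (0.908) were most like PCDH7, and of these C1orf43 also had a high rank correlation (Spearman's rho 0.869 against 0.52 and 0.573). CDH4, a cadherin, was most like SPOCK1 (r = 0.907), followed by EIF3FP3 (0.891), a pseudogene that may share reads with its parent gene, and ENSG00000274712 (0.885). For GJB2 the closest were RAET1E (r = 0.903), AGMO (0.896) and GSDMD (0.891). For GLI3 they were CFDP1 (0.912), WDR20 (0.895) and RNF144A (0.892). RFTN1 had the loosest company, with APBB1IP (0.845), ZNF620 (0.824) and HAPLN3 (0.806).

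Pairs of the 5 genes were also compared over the libraries of each line. Over the 8 H2023 libraries, r between PCDH7 and the other 4 ran from -0.95 (RFTN1) to -0.54 (SPOCK1), which the selection itself favours. GJB2 and GLI3 had r = 0.889 there and SPOCK1 and GLI3 0.897. In A549 GJB2 and GLI3 had r = -0.545, SPOCK1 and GLI3 0.248 and PCDH7 and RFTN1 0.531. SPOCK1 and GJB2 went from 0.703 in H2023 to -0.78 in A549. These values are over 8 libraries of 4 groups each and are given as a description.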

How the data were processed

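RNA sequencing was analysed from 4 tables deposited by the authors, 1 for each line and culture, with 4 libraries each. Total RNA was purified with ReliaPrep kits and 1 µg was made into TruSeq stranded mRNA libraries, per the labels' protocols. HISAT2, StringTie and GRCh38 are named in the submitters' processing notes. The TPM values per library were made by the authors and summed to 991838 to 998125. The tables also hold a mean normalized count (a signal), the knockout effect as log2 fold change and its standard error, a test score, a p-value and an adjusted p-value, all computed by the authors under DESeq2's column names, per the file headers. The mean normalized counts, a signal deposited by the authors, summed to 20453740 to 22760512 per table. Raw counts and depths per library were not used here, so no count test was run.

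The members and the lists were chosen with earlier results of these data known. The line of a library was read from its table's name. Repeated gene rows were reduced to the first. Symbols missing from the tables were taken from a list of Ensembl names. Tests used limma 3.58.1 in R 4.3.3 on log2(TPM + 1), with a mean-variance trend, two-sided, Benjamini-Hochberg over all 18227 genes and a threshold of 0.05. The culture differences of H2023 and the differences between lines, planned as tests, are printed for the 5 genes without p-values, since the H2023 libraries selected them. Fold changes on this scale understate those of low genes. Knockout tests used the 4 libraries of a table, culture tests and the interaction the 8 libraries of a line, and line tests all 16. Culture and line comparisons cross tables and rest on TPM being scaled within each library. That scaling does not correct for differences in composition between libraries, such as the mitochondrial share. The limma step was tested on simulated data for both A549 knockout comparisons, the A549 wild-type culture comparison and the normal-culture line comparison. Genes named are the 5 members, ZC3H12A, set members of each list and list genes called in both H2023 cultures. Named too are the 3 nearest genes on each side and the 3 most like each member. Both kinds were taken among genes with a mean of at least 1 TPM. Positions are from GENCODE 29 (GRCh38) and promoters from RefSeq (GRCh38.p14). Alternatives were other pseudocounts, a filter on low TPM, median centring, other sets of libraries in the fit, a replicate block and each library left out.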

Additional observations from a re-analysis of the deposited data

Results flagged for a closer look

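GJB2 drew attention because every A549 library labelled knockout lay below wild type and every H2023 library labelled knockout above it. The gap between the lines, H2023 minus A549 in the authors' deposited log2 fold changes, was 6.07 in normal culture and 4.45 in oncospheres. RFTN1 showed the same arrangement in normal culture, with a gap of 3.67. These differences between lines were not tested, because the H2023 comparison selected the genes.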

How the results depend on the processing

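Of 263 alternative values of the differences of the 5 genes tested in A549, 227 kept their direction and their side of the threshold, 15 lost and 10 gained a call, and 11 changed sign. Of 98 alternatives of their H2023 knockout differences, 1 changed sign, that of SPOCK1 in oncospheres without the second wild-type library (-0.094 in place of 0.19), and 18 moved by more than the spread between replicates, mostly with a smaller pseudocount. The A549 normal-culture difference of SPOCK1 (1.77) passed with a filter at a mean of 1 TPM (limma adjusted p = 0.0487) and in a fit over all 16 libraries (0.0114), where that of GJB2 (-0.97) was lost (0.138). The A549 oncosphere difference of GJB2 (-1.64, limma adjusted p = 0.056) passed with the filter (0.0321), over all 16 libraries (0.0164) and at a pseudocount of 0.1 (-2.08, 0.048). At that pseudocount the GJB2 difference of the A549 knockout effect between cultures was 0.089 in place of -0.67. Members with a mean under 1 TPM have no value under the filter. With a replicate block the GJB2 oncosphere difference passed (-1.64, limma adjusted p = 0.0243), as did the culture difference of GJB2 in A549 knockout (1.04, 0.041). Numbers are shared between groups without a stated pairing, and deviations of same-numbered libraries correlated at 0.027 to 0.461 over 14823 genes, so the block is given only here.

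Genes called in A549 normal culture and oncospheres numbered 3233 and 3780 over all 16 libraries and 3639 and 3628 in the authors' deposited tables, against 1971 and 2413. In H2023 normal culture 481 were called with the filter, 546 over all 16 libraries and 1665 by the authors, and in oncospheres 6, 1014 and 816, against 0. Genes of the 6 lists called were 23 by the authors in A549 normal culture. In H2023 normal culture the lists gave 7 with the filter, 9 over all 16 libraries and 14 by the authors, and in oncospheres 6 over all 16 libraries and 7 by the authors. With 1 library left out, A549 normal culture gave 0 genes and A549 oncospheres 0 to 38, and the lists gave 0 in both, with fewer samples in the fit and the lone library assumed to vary like the others.

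Leaving out each library gave ranges of -1.08 to -0.69 (PCDH7) and -1.20 to -0.73 (GJB2) for the A549 normal-culture knockout difference, both without a call. Ranges that cross 0 were those of GLI3 in that comparison (-0.088 to 0.90), RFTN1 in A549 oncospheres (-0.087 to 0.38), SPOCK1 in H2023 oncospheres (-0.094 to 0.47) and GLI3 in the A549 difference between cultures (-0.57 to 0.42). In the line comparisons they were SPOCK1 in normal culture (-0.74 to 0.52) and oncospheres (-0.23 to 0.33) and GJB2 in normal culture (-0.59 to 0.30). In the culture comparisons they were GJB2 in H2023 wild type (-0.20 to 0.68), GLI3 in A549 wild type (-0.75 to 0.23), RFTN1 in A549 knockout (-0.52 to 0.083) and RFTN1 in H2023 knockout (-0.29 to 0.83). The cause of these changes was not tested. Count tests were not run, because the tables hold TPM. The depth of each library is unknown, so no limit can be set on a value of 0.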
